A study of Mus musculus with 8 samples.

Results

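The genes described here are 10 members of the bone morphogenetic protein (BMP) pathway: the 4 genes of the ID family (Id1, Id2, Id3 and Id4), the ligand gene Bmp4, the receptor gene Bmpr1a, the signal transducers Smad1 and Smad5, and the feedback inhibitors Smad6 and Bambi. They were chosen by name as members of the pathway, with earlier results of these data known; the rule itself uses no measured value. All 10 had values in every library, among 17488 genes with values, and all 10 passed the filter of a mean value of at least 1 and were tested.

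BMP ligands bind receptors of type I and type II at the cell surface, and the type I receptor then phosphorylates the transducers SMAD1 and SMAD5, which enter the nucleus with SMAD4 and act on target genes. Among the best known direct targets are the ID genes and the feedback inhibitors. ID proteins have a helix-loop-helix domain without a DNA-binding region, so they capture E proteins and keep them from pairing with tissue-specific partners. In mouse embryonic stem cells, BMP4 acting through ID proteins is known to hold back neural differentiation in medium without serum. The kinase GSK3 is best known for marking β-catenin for destruction in the Wnt pathway, and it also phosphorylates the linker of SMAD1, which leads to its turnover.

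The study sequenced total RNA of E14 cells, an established line of mouse embryonic stem cells, in 4 groups of 2 libraries. The GSK3α line lacks the endogenous Gsk3a gene and carries a GSK3α transgene with the change L195G, and the GSK3β line lacks Gsk3b and carries a GSK3β transgene with the change L132G. Such changes are made to let a bulky inhibitor, here 3MB-PP1, into the ATP pocket of the kinase. All 4 groups were kept for 6 h in N2B27 medium without serum, and in each line 1 group was then left untreated while the other received 5 µM 3MB-PP1 for 2 h. The labels name no promoter for the transgenes, no vehicle for the untreated cells and no line without a mutant kinase. Each paralog is represented by 1 line, so an effect of the paralog cannot be told apart from any other difference between these lines. Nothing in the labels says whether replicates were separate cultures, and p-values then measure only the spread between these libraries, which may be technical.

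The values are the authors' estimated gene counts, scaled so that the third quartile is equal in all libraries, and are called values below. Reads assigned to genes were estimated at 21.5 to 32.4 M per library. Gsk3a stood at 141 to 160 in the GSK3α line and at 76.2 to 79.9 in the GSK3β line, and Gsk3b at 52.7 to 58.2 and at 235 to 258, so each targeted gene, whose transgene is counted with it, was higher in its own line. Embryonic stem cell markers were all measured, 10 of 10, with a summed value of 6549 to 6737 over all groups. In the GSK3β line 3 of them rose with the inhibitor, Klf4 (log2 difference 0.59), Esrrb (0.22) and Nanog (0.14), and 3 fell, Fgf4 (-0.52), Tdgf1 (-0.24) and Utf1 (-0.20). Markers of fibroblasts, 3 of 8 with values, summed to 9.34 to 11.4 in the GSK3α line and to 12.9 to 14.01 in the GSK3β line, with Col3a1, Postn, Dcn, Lum and Fap without values.

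Log2 differences below are on the scale log2(value + 1), which understates the change of genes at low values. They come from limma-trend with 1 mean per group, the error given is the standard error of that fit, and a gene is said to rise, fall or be higher or lower where its adjusted p (Benjamini-Hochberg over all 13959 tested genes) was under 0.05. In bulk RNA, fewer cells of a type and less RNA per cell cannot be told apart.

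Per kilobase of exon, the level of Id3 was the highest of the 10 genes, with 28.6 as its mean over the 8 libraries. Bmpr1a followed at 12.02, Id1 at 9.44 and Bmp4 at 8.81. The remaining 6 genes stood between 1.47 for Id2 and 3.43 for Smad5, with Id4 at 1.90. Estimated reads per library ran from 75 to 122 for Id2, the most thinly covered member, and from 939 to 2028 for Id3, so the errors of Id2 and Id4 are the widest of the ID genes. The plot of values by library shows every measurement.

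**Figure D1:**
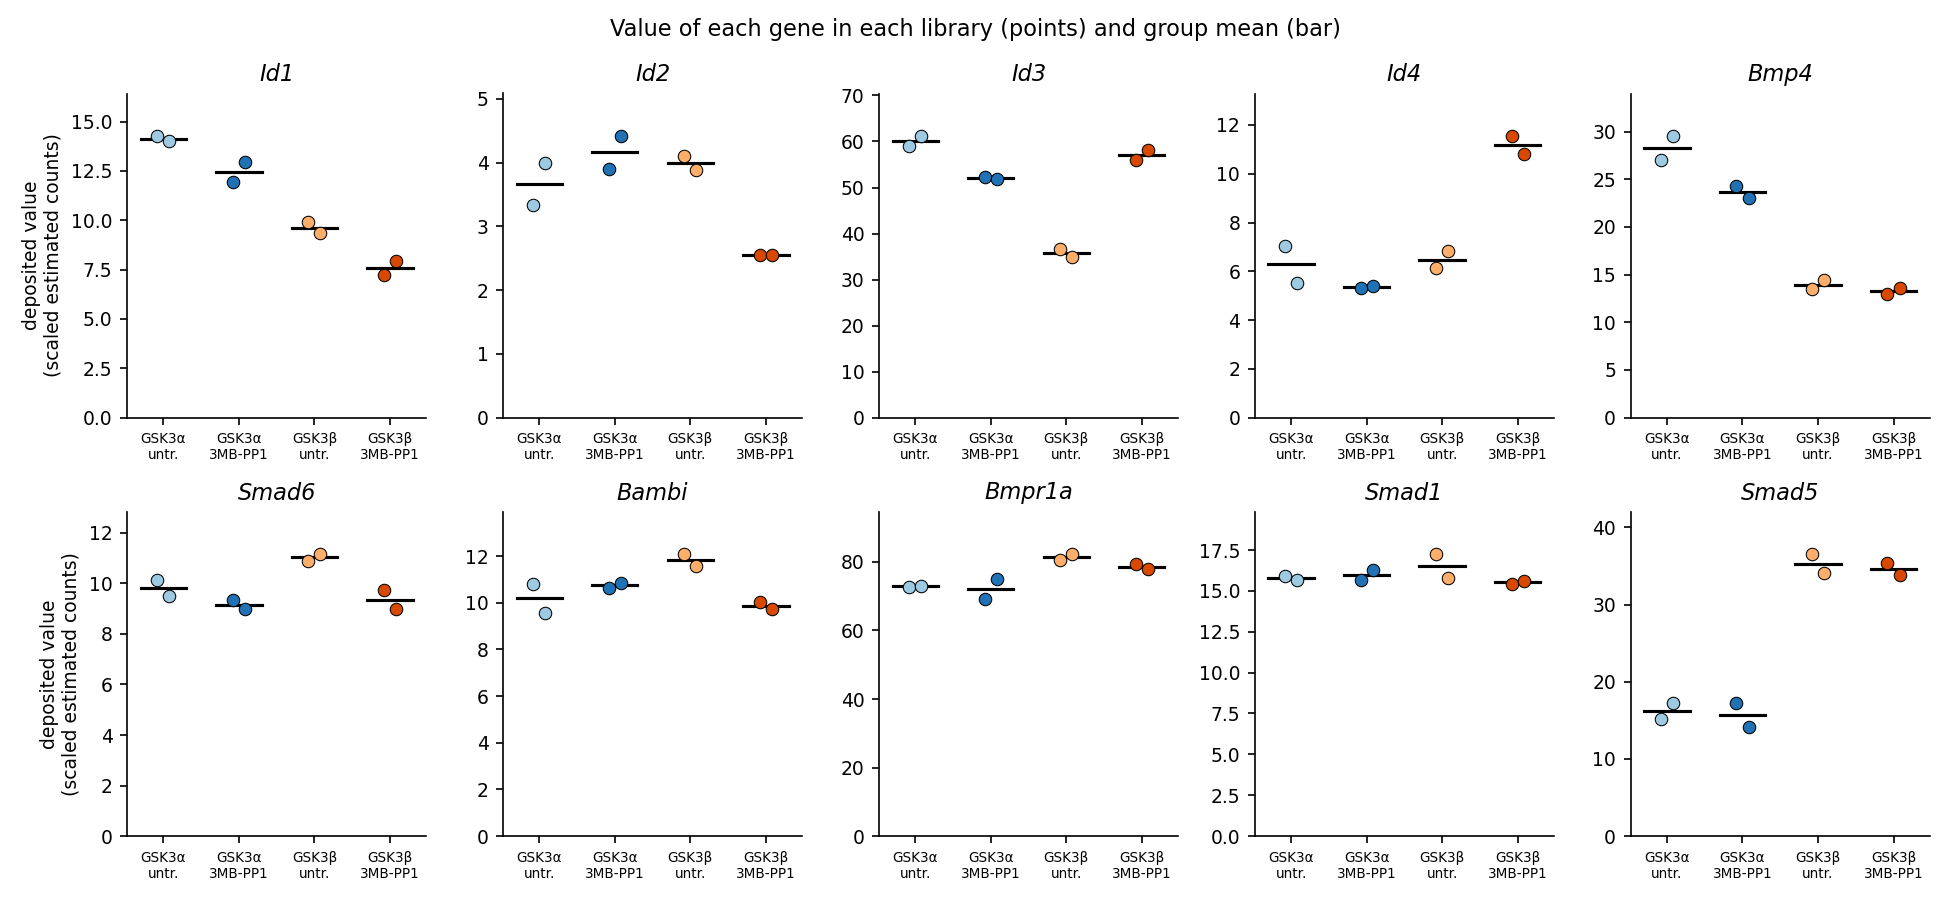
Deposited value (scaled estimated counts, linear axis from 0) of each of the 10 genes in each library. Points are libraries, bars are the means of the 2 libraries of a group. Id3 and Id4 stand higher and Id1 and Id2 lower with 3MB-PP1 in the GSK3β line, and Smad5 stands at 33.8 to 36.5 in the GSK3β line against 14.1 to 17.3 in the GSK3α line.

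The comparison of inhibitor with untreated cells in the GSK3β line asks what follows 2 h of 3MB-PP1 where GSK3β is the kinase made sensitive. The ID genes split: Id3 and Id4 rose, and Id1 and Id2 fell. Bmp4, Bmpr1a, Smad1, Smad5, Smad6 and Bambi did not pass the test. In all, 4 of 10 members passed, where 14.9% of all tested genes did. The 2 that rose compare with 7.49% of tested genes higher, and the 2 that fell with 7.44% lower. The libraries of the groups did not overlap in 8 of the 10 members, against 57.3% of all tested genes. The median log2 difference over the 10 members was -0.07, and over all tested genes it was -0.01.

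Id3 (chromosome 4, 136143497 to 136145755, mm10, plus strand) had values of 36.7 and 35.0 in the untreated libraries of the GSK3β line and of 56.0 and 58.2 with the inhibitor. Both treated libraries were above both untreated ones. The ratio of the means was 1.59, and the log2 difference was 0.66 ± 0.04 (adjusted p = 4.32e-09). This call held in all 17 alternative settings, with log2 differences of 0.61 to 0.69.

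Id4 (chromosome 13, 48261228 to 48266026, plus strand) had values of 6.14 and 6.83 untreated and of 11.6 and 10.8 with the inhibitor, again with no overlap. The means differed 1.73-fold, with a log2 difference of 0.71 ± 0.10 (adjusted p = 9.41e-05). It too passed in all 17 settings, with log2 differences of 0.50 to 0.78. Id4 encodes an ID protein known for roles in neural precursors.

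Id2 (chromosome 12, 25093799 to 25097140, minus strand) had values of 4.10 and 3.88 untreated and of 2.55 and 2.56 with the inhibitor. The treated mean was 0.64 times the untreated one, and the log2 value fell by 0.49 ± 0.11 (adjusted p = 0.00625). Leaving out untreated replicate 1 or inhibitor replicate 1 of the line ended the call, with adjusted p = 0.0543 and 0.0560 at log2 differences of -0.46 and -0.49.

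Id1 (chromosome 2, 152736251 to 152737410, plus strand), the ID gene most often used as a readout of BMP signalling, had values of 9.89 and 9.36 untreated and of 7.24 and 7.96 with the inhibitor. The treated mean was 0.79 times the untreated one, with a log2 difference of -0.31 ± 0.08 (adjusted p = 0.0141). The same 2 libraries ended this call when left out, with adjusted p = 0.105 without untreated replicate 1 and 0.181 without inhibitor replicate 1. Both falls were thus closer to the threshold than the rises of Id3 and Id4.

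Because Id2 and Id4 moved in opposite directions in the GSK3β line, bases before their RefSeq transcription starts are shown side by side. They are from RefSeq on the build GRCm38.p6, in which 8 of the 10 members, all but Id1 and Bambi, have promoter windows. The capitals mark GGCGCC, a GC-rich element known to be bound by SMAD1 and SMAD5. Id2 is chr12:25096254-25096342 on the minus strand, the 89 bases from -250 to -162 of the RefSeq start, and Id4 is chr13:48260866-48261115 on the plus strand, the 250 bases before its start. The Id2 stretch lies inside the GENCODE span of Id2 given above, outside its exons, and the remaining 161 bases of its window are exon and are not shown. The Id4 stretch lies wholly before the GENCODE start of Id4.
Id2: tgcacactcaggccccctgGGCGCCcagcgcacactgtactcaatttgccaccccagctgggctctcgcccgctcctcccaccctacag
Id4: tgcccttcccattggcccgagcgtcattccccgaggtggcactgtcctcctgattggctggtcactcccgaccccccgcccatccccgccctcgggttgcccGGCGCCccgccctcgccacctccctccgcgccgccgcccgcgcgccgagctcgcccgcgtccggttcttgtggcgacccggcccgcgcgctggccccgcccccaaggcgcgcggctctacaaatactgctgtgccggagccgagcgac
The element begins at -231 in Id2 and at -148 in Id4. It reads the same on both strands and occurs in 9.59% of all 32851 promoter windows of 250 bases. The windows of the members have 60.0% to 78.8% GC, next to a median of 52.4% over all windows. The share is thus not a background matched for GC, and enrichment of the element was not tested. The element was also found in the window of Bmpr1a, at -198, and in 1 of the 3 windows of Smad5, at -19. That window of Bmpr1a lies inside the GENCODE span of the gene, with 141 bases in its exons, and the element of Smad5 lies past the GENCODE start of Smad5. Its letters are not in the windows of Id3, Bmp4, Smad6 and Smad1. All 250 bases of the Id3 window lie in GENCODE exons of Id3, past its GENCODE start, and 90 bases of the Smad1 window lie in exons of Smad1. Bases before the GENCODE start of Id3 were thus not searched. The palindromic SMAD element GTCTAGAC (0.167% of windows) and the TCF/LEF motif ATCAAAG (3.21% on either strand) occurred in no window of the 8 members. None of the 3 motifs contains another. The windows with the element thus belong to a gene that rose, a gene that fell and 2 genes that did not pass.

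The feedback inhibitors had lower means with the inhibitor in the GSK3β line without passing the test. Smad6 (chromosome 9, 63953076 to 64022059), an inhibitory SMAD that is itself a BMP target, had values of 10.9 and 11.2 untreated and of 9.73 and 8.99 treated. Its log2 difference was -0.22 ± 0.08, with an interval of -0.39 to -0.05 and adjusted p = 0.0812. Bambi (chromosome 18, 3507923 to 3516404), a decoy receptor without a kinase domain, had values of 12.1 and 11.6 untreated and of 10.03 and 9.74 treated. Its log2 difference was -0.24 ± 0.08 (adjusted p = 0.0549), and 4 of 17 settings put it past the threshold, with adjusted p down to 0.0417. A pseudogene of Bambi, Bambi-ps1, is also listed, so reads of the 2 could be split and the values of Bambi are uncertain to that extent.

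The ligand, the receptor and the transducers showed smaller differences. Bmp4 (chromosome 14, 46383520 to 46390669) had values of 13.5 and 14.4 untreated and of 12.9996 and 13.6 treated, which overlap, with a log2 difference of -0.06 ± 0.07 (interval -0.20 to 0.08). Bmpr1a (chromosome 14, 34410734 to 34503341), which encodes a type I receptor, stood at 80.6 and 82.2 untreated and at 79.3 and 78.0 treated, a log2 difference of -0.05 with an interval of -0.13 to 0.04. Smad1 (chromosome 8, 79338395 to 79399518) stood at 17.2 and 15.8 and at 15.4 and 15.6, a log2 difference of -0.08 with an interval of -0.22 to 0.06. Smad5 (chromosome 13, 56703010 to 56742377) stood at 36.5 and 34.1 and at 35.3 and 33.8, a log2 difference of -0.03 with an interval of -0.19 to 0.14. Their intervals leave room for changes of either sign within these bounds.

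In the GSK3α line, the same comparison asks what follows 3MB-PP1 where GSK3α is the sensitive kinase. Only Id3 passed, and it fell, where 0.881% of all tested genes passed and 0.616% were lower. None of the 10 rose, against 0.265% of tested genes higher. Id3 had values of 58.9 and 61.2 untreated and of 52.2 and 51.9 treated, a log2 difference of -0.20 ± 0.04 (adjusted p = 0.0304). The libraries of the groups did not overlap in 5 of the 10 members, against 42.0% of tested genes. The fall of Id3 was lost when any 1 of the 4 libraries of the line was left out, with adjusted p of 0.0730 to 0.293 at log2 differences of -0.18 to -0.23, and also when the spread was not allowed to vary with level (adjusted p = 0.253).

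The other ID genes of the GSK3α line gave values without a call. Id1 had values of 14.3 and 13.99 untreated and of 11.9 and 12.97 treated, with no overlap and a log2 difference of -0.17 ± 0.08 (interval -0.34 to -0.0028, adjusted p = 0.412). Id4 had values of 7.03 and 5.53 untreated and of 5.33 and 5.40 treated, a log2 difference of -0.19 ± 0.10 (adjusted p = 0.505). Id2 had values of 3.34 and 3.998 untreated and of 3.90 and 4.42 treated, which overlap, with a log2 difference of 0.15 ± 0.11 (adjusted p = 0.668). Among the pathway components, Bmp4 was the nearest to a call: values of 27.1 and 29.6 untreated against 24.3 and 23.0 treated gave -0.25 ± 0.07 (adjusted p = 0.0983), and it passed where only the 4 libraries of the line were fitted (adjusted p = 0.0429). The remaining 5 genes had log2 differences between -0.09 for Smad6 and 0.07 for Bambi, with adjusted p of 0.723 to 0.952.

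**Figure D2:**
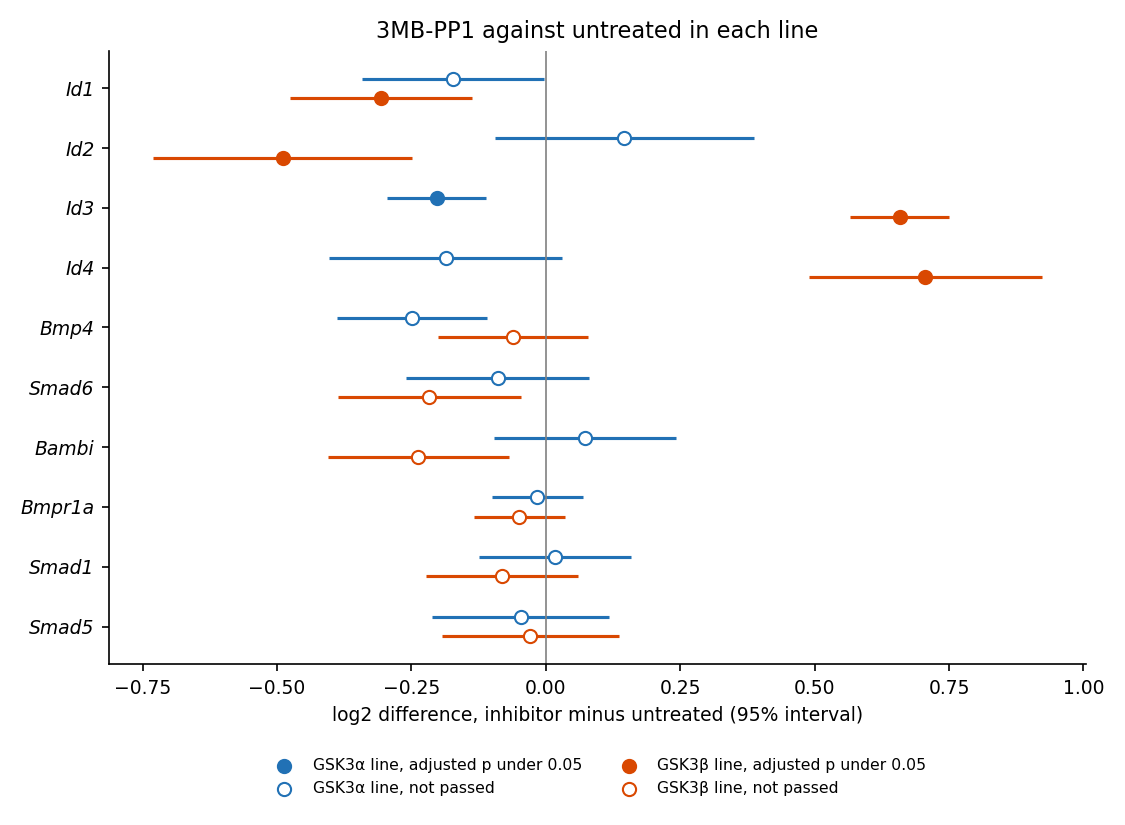
Log2 difference (inhibitor minus untreated, on the scale log2(value + 1)) of the 10 genes in the GSK3α line and the GSK3β line. Lines are 95% intervals of the limma fit, filled points passed the adjusted p of 0.05. In the GSK3β line Id3 (0.66) and Id4 (0.71) lie above 0 and Id1 (-0.31) and Id2 (-0.49) below it, while in the GSK3α line Id3 (-0.20) is the filled point.

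The difference between these changes in the 2 lines was tested directly. It passed for 3 of the 10 members, Id2, Id3 and Id4, where 6.53% of tested genes passed (3.62% higher and 2.90% lower in the GSK3β line). For Id3 the log2 change was 0.86 ± 0.06 higher in the GSK3β line (adjusted p = 6.25e-08), with a rise there and a fall in the GSK3α line. For Id4 it was 0.89 ± 0.15 higher (adjusted p = 0.000857), and for Id2 it was -0.64 ± 0.16 (adjusted p = 0.0229). The call of Id2 was lost in 5 of the 8 fits that left out a library, with adjusted p of 0.0618 to 0.107, and with a spread that did not vary with level (0.0639), which also took Id4 to 0.0518. The call of Id3 held in all 16 settings.

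For Id1 the change did not pass a test of difference between the lines, with -0.13 and an interval of -0.37 to 0.11 (adjusted p = 0.552). Its fall was past the threshold in the GSK3β line and not in the GSK3α line, but the 2 falls were not shown to differ. Bambi had a difference of -0.31 ± 0.11 (adjusted p = 0.118), from 0.07 in the GSK3α line and -0.24 in the GSK3β line. The other 5 members had differences between -0.13 for Smad6 and 0.19 for Bmp4.

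The 2 lines also differed before any treatment, and these differences are the baseline from which the changes above started. Of the members, 3 were higher and 3 lower in the untreated GSK3β line, where 48.2% of all tested genes passed (22.3% higher and 25.9% lower), so the share of 6 in 10 is near the background. Groups without overlap numbered 7 of 10, against 72.2% of tested genes. Bmp4 was lower in the GSK3β line, at 13.5 and 14.4 against 27.1 and 29.6, or 0.49 times the level in the GSK3α line (log2 difference -0.97 ± 0.07, adjusted p = 8.19e-10). Id3 was lower at 36.7 and 35.0 against 58.9 and 61.2 (-0.73 ± 0.04, adjusted p = 1.20e-10), and Id1 at 9.89 and 9.36 against 14.3 and 13.99 (-0.51 ± 0.08, adjusted p = 4.20e-05).

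Smad5 had the largest difference of the members between the untreated lines, with 36.5 and 34.1 in the GSK3β line against 15.1 and 17.3 in the GSK3α line, a 2.18-fold difference (log2 1.08 ± 0.08, adjusted p = 1.97e-09). Its paralog Smad1 did not pass, at 17.2 and 15.8 against 15.9 and 15.7 (0.06, interval -0.08 to 0.20). Per kilobase of exon, the ratio of Smad5 to Smad1 was 0.73 to 0.93 in the 4 libraries of the GSK3α line and 1.79 to 1.93 in the 4 of the GSK3β line, and the sum of both was 4.50 to 4.83 and 7.06 to 7.67. Bmpr1a was higher in the GSK3β line at 80.6 and 82.2 against 72.8 and 73.1 (0.16 ± 0.04, adjusted p = 0.00378). Bambi was higher by 0.20 ± 0.08 (adjusted p = 0.0491), a call that 7 of 17 settings kept. Id2, Id4 and Smad6 did not pass, with log2 differences of 0.10, 0.05 and 0.15.

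With the inhibitor in both lines, 4 members were higher and 3 lower in the GSK3β line, where 49.0% of tested genes passed (21.2% higher and 27.7% lower). Groups without overlap numbered 9 of 10, against 76.7%. Id4 was higher in the treated GSK3β line at 11.6 and 10.8 against 5.33 and 5.40, a 2.09-fold difference (log2 0.94 ± 0.10, adjusted p = 5.25e-07). Id3, lower in the untreated GSK3β line, was slightly higher in the treated one, at 56.0 and 58.2 against 52.2 and 51.9 (0.13 ± 0.04, adjusted p = 0.0183), and 4 of 17 settings ended this call, with adjusted p of 0.0545 to 0.159. Id2 was lower at 2.55 and 2.56 against 3.90 and 4.42 (-0.54 ± 0.11, adjusted p = 0.000779), as were Id1 (-0.65 ± 0.08) and Bmp4 (-0.78 ± 0.07). Smad5 stayed higher with 1.10 ± 0.08 (adjusted p = 1.49e-09) and Bmpr1a with 0.12 ± 0.04 (adjusted p = 0.0176), which 4 of 17 settings ended. Smad6, Bambi and Smad1 did not pass.

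**Figure D3:**
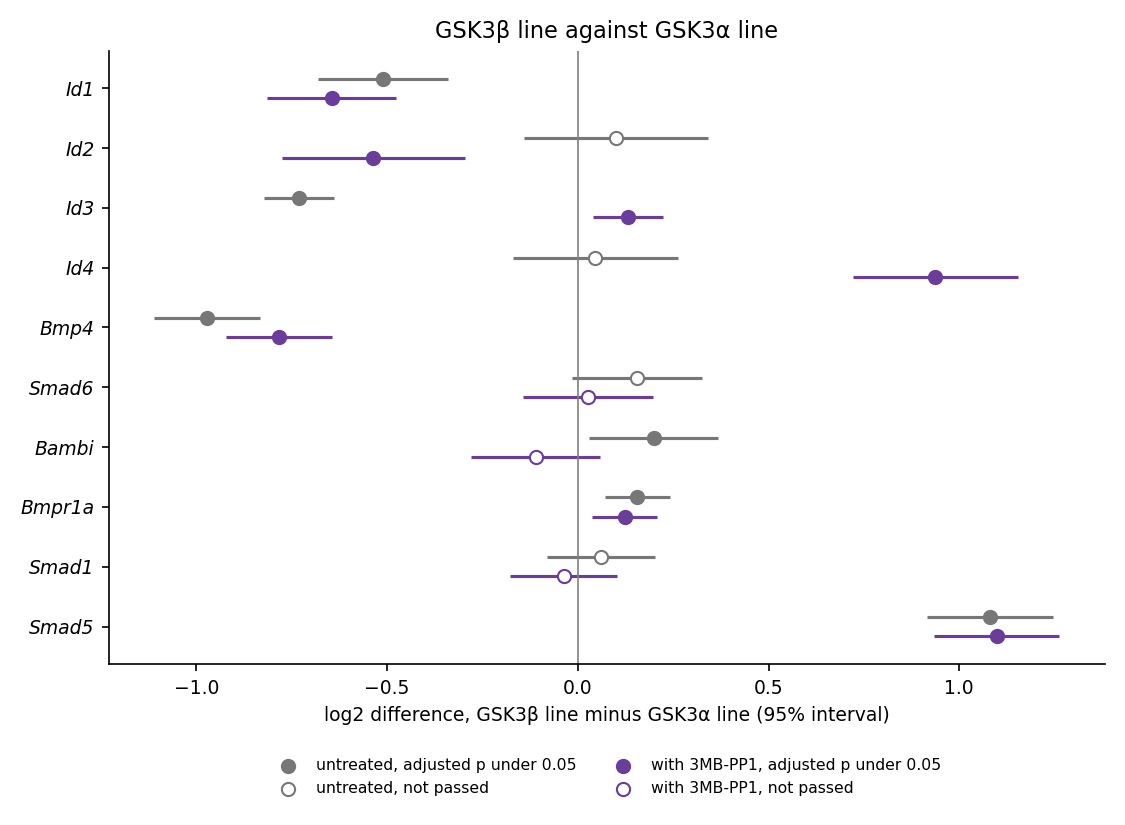
Log2 difference between the lines (GSK3β line minus GSK3α line) of the 10 genes, untreated and with 3MB-PP1. Lines are 95% intervals of the limma fit, filled points passed the adjusted p of 0.05. Bmp4 and Id1 lie below 0 and Smad5 near 1.08 to 1.10 in both states, while Id3 moves from -0.73 to 0.13 and Id4 from 0.05 to 0.94.

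The order of the 4 groups differed between the ID genes. For Id1 it ran from the treated GSK3β line (mean 7.60) over the untreated one (9.62) and the treated GSK3α line (12.4) to the untreated GSK3α line (14.1). For Id3 the untreated GSK3β line (35.8) stood apart below the treated GSK3α line (52.1), the treated GSK3β line (57.1) and the untreated GSK3α line (60.1). For Id4 the treated GSK3β line (11.2) stood apart above 5.36, 6.28 and 6.48 in the others, and for Id2 it stood below them, at 2.55 against 3.67 to 4.16. The 3 lower groups of Id4 and the 3 higher groups of Id2 were not separated by the tests that compared them.

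Per kilobase of exon, the summed level of the 4 ID genes was 48.4 and 49.3 in untreated and 42.4 and 43.4 in treated libraries of the GSK3α line, and 32.3 and 30.96 in untreated and 41.55 and 43.2 in treated libraries of the GSK3β line. In the GSK3β line the share of Id3 in this sum was 63.45% and 63.1% untreated and 75.2% in both treated libraries. The share of Id1 was 26.4% and 26.1% untreated and 15.01% and 15.9% treated. In the GSK3α line the shares of Id3 ran from 66.8% to 69.3% and those of Id1 from 24.2% to 25.8% over all 4 libraries. The sum is mostly Id3 in every library, with Id1 next. Id2 made up 2.42% to 5.21% and Id4 2.91% to 7.23% of it. These are descriptions of the libraries with no test.

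**Figure D4:**
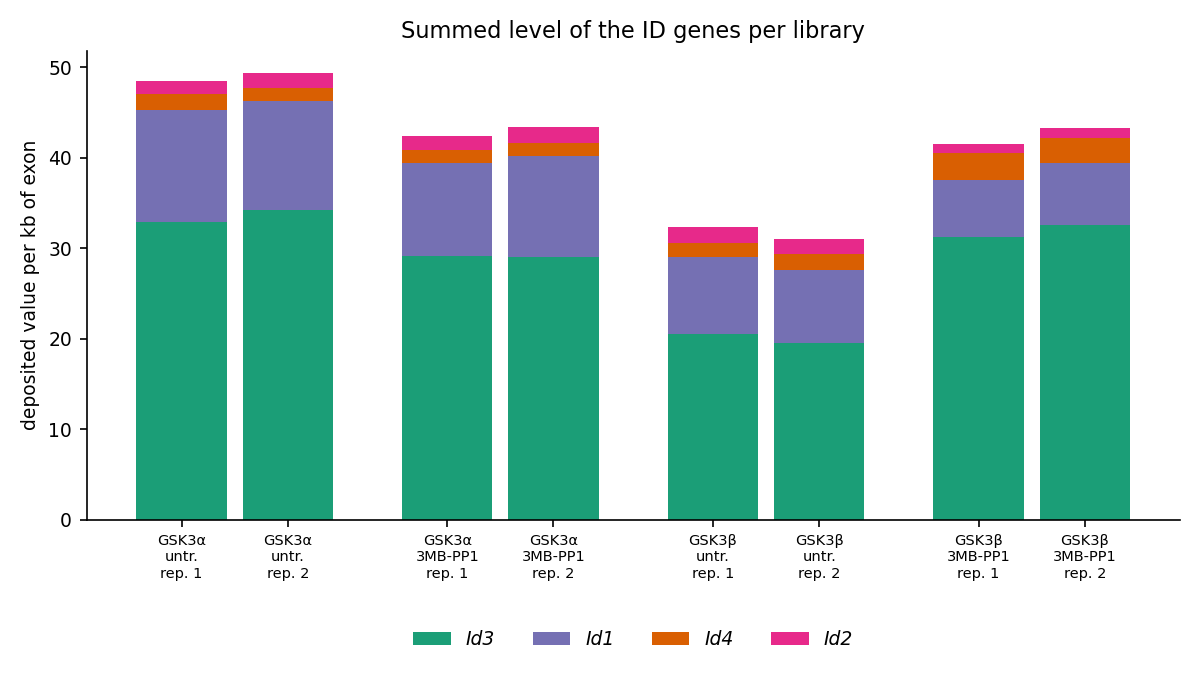
Summed level of Id1, Id2, Id3 and Id4 per kilobase of exon in each of the 8 libraries, stacked by gene (deposited value per kb, linear axis from 0). The untreated GSK3β line has the lowest sum (30.96 and 32.3), and the share of Id1 is smaller in its treated libraries (15.01% and 15.9%) than in the other 6 libraries (24.2% to 26.4%).

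By the size of the root mean square distance between their deviations over the 8 libraries, on the log2 scale, among 10793 genes with a mean of at least 5, the genes most like Id1 were Sirt1 (0.07), Nphs1 (0.07) and Ahdc1 (0.07), where the deviations of Id1 itself had a spread of 0.32. Id2, with a spread of 0.22, was nearest to Igsf9 (0.06), Rab3d (0.07) and Fgf4 (0.08), which encodes a growth factor of embryonic stem cells. Id3, with a spread of 0.29, was nearest to Gm10222, Gm28661 and Gm28439 (0.06 to 0.07), which GENCODE lists as unprocessed pseudogenes, so the assignment of their reads is uncertain. Id4, with a spread of 0.37, was nearest to Fst (0.10), Grsf1 (0.12) and Nid1 (0.13). Fst encodes follistatin, a secreted antagonist of activin and BMP ligands.

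The rest of the pathway was followed in 7 lists of genes, in which the members above are counted where they belong. In the GSK3β line, 1 of 7 tested BMP ligands rose and none fell, 2 of 10 tested receptors and co-receptors rose, and 1 of 8 antagonists rose and 1 fell. Of 7 tested SMAD genes 2 fell, of 18 intracellular regulators of SMAD activity 5 fell, of 9 other BMP target genes 4 rose and 1 fell, and of 8 tested E proteins and other helix-loop-helix partners 1 rose and 2 fell. Smad7 is counted as a fall in each of the lists of SMAD genes, intracellular regulators and other targets. Of the 4 targets that rose, Msx2 passed the filter only through its treated libraries in this line. The median log2 differences of the lists ran from -0.11 for SMAD genes to 0.25 for the other BMP targets, next to -0.01 over all tested genes. Each share can be read against the 14.9% of all tested genes that passed.

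Smad7, an inhibitory SMAD and feedback target of both BMP and TGF-β signalling, fell in both lines. It stood at 76.6 and 77.0 untreated and at 49.2 and 49.9 treated in the GSK3α line (log2 -0.62 ± 0.05, adjusted p = 4.69e-07), and at 72.2 and 76.3 against 45.1 and 40.2 in the GSK3β line (-0.79 ± 0.05, adjusted p = 1.94e-09). Skil, which encodes the SMAD co-repressor SnoN, also fell in both, by 0.26 and 0.50 on the log2 scale. In the GSK3α line Smad7 and Skil were the only genes of the 7 lists that passed. The call of Smad7 was lost in 1 setting, with a spread that did not vary with level (adjusted p = 0.0807), and that of Skil in 4 of 17. For Smad7 the difference between the lines was -0.16 (adjusted p = 0.171), so a difference in response was not shown.

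Of the other BMP target genes, Klf2, a pluripotency factor, stood at 129 and 130 untreated and at 190 and 184 treated in the GSK3β line (0.53 ± 0.03, adjusted p = 1.66e-09). Prdm14, a repressor that supports naive pluripotency, stood at 36.8 and 38.4 against 57.6 and 51.3 (0.52 ± 0.05, adjusted p = 8.77e-07), and Tbx3 rose by 0.30 ± 0.04 (adjusted p = 1.75e-05). In the GSK3α line the same genes differed by 0.03, 0.00 and -0.07 and did not pass. The difference between the lines passed for all of them, with 0.49 for Klf2, 0.52 for Prdm14 and 0.37 for Tbx3. Tbx3 and Prdm14 lost it where the spread did not vary with level, with adjusted p = 0.0847 and 0.0611. Cdx2 had a mean of 0.993 and was not tested: its values in the GSK3β line were 0.195 and 0.321 untreated and 2.43 and 3.27 treated.

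Among secreted factors and their modulators in the GSK3β line, Fst stood at 4.50 and 5.71 untreated and at 8.98 and 7.81 treated (0.63 ± 0.11, adjusted p = 0.000637), and Fstl1, a follistatin-like protein, fell by 0.27 ± 0.04 (adjusted p = 3.59e-05). Bmp7 rose by 0.39 ± 0.09 (adjusted p = 0.00408), from 7.43 and 8.17 to 9.79 and 11.3, and lost its call without untreated replicate 1 (adjusted p = 0.0510) or inhibitor replicate 2 (0.0859). The co-receptors Rgma (0.48, adjusted p = 0.00856) and Rgmb (0.31, adjusted p = 0.0288) lost theirs without single libraries of the line, with adjusted p of 0.0742 to 0.0875 and of 0.0619 to 0.227. Smad4, the common partner of SMAD1 and SMAD5, fell by 0.14 ± 0.04 (adjusted p = 0.0212) and lost its call in 4 settings, with adjusted p up to 0.155. The SMAD co-repressor gene Ski (-0.15) and the SMAD phosphatase gene Ctdsp1 (-0.24) fell and lost their calls without inhibitor replicate 1, with adjusted p = 0.131 and 0.124, and where the spread did not vary with level, with 0.0830 and 0.0679.

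The E proteins that ID proteins capture showed no call in either line: in the GSK3β line, Tcf3, which encodes E2A, differed by 0.05, Tcf4 by -0.12 and Tcf12 by 0.07 on the log2 scale, with adjusted p of 0.173 to 0.418. In the same line the neural factor gene Neurod1 (-0.46, adjusted p = 0.00352) and Hes6 (-0.30, adjusted p = 0.00796) fell, and Hes1, a Notch target, rose (0.19, adjusted p = 0.0263). Each of the 3 lost its call without single libraries, with adjusted p of up to 0.249 for Hes1.

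**Figure D5:**
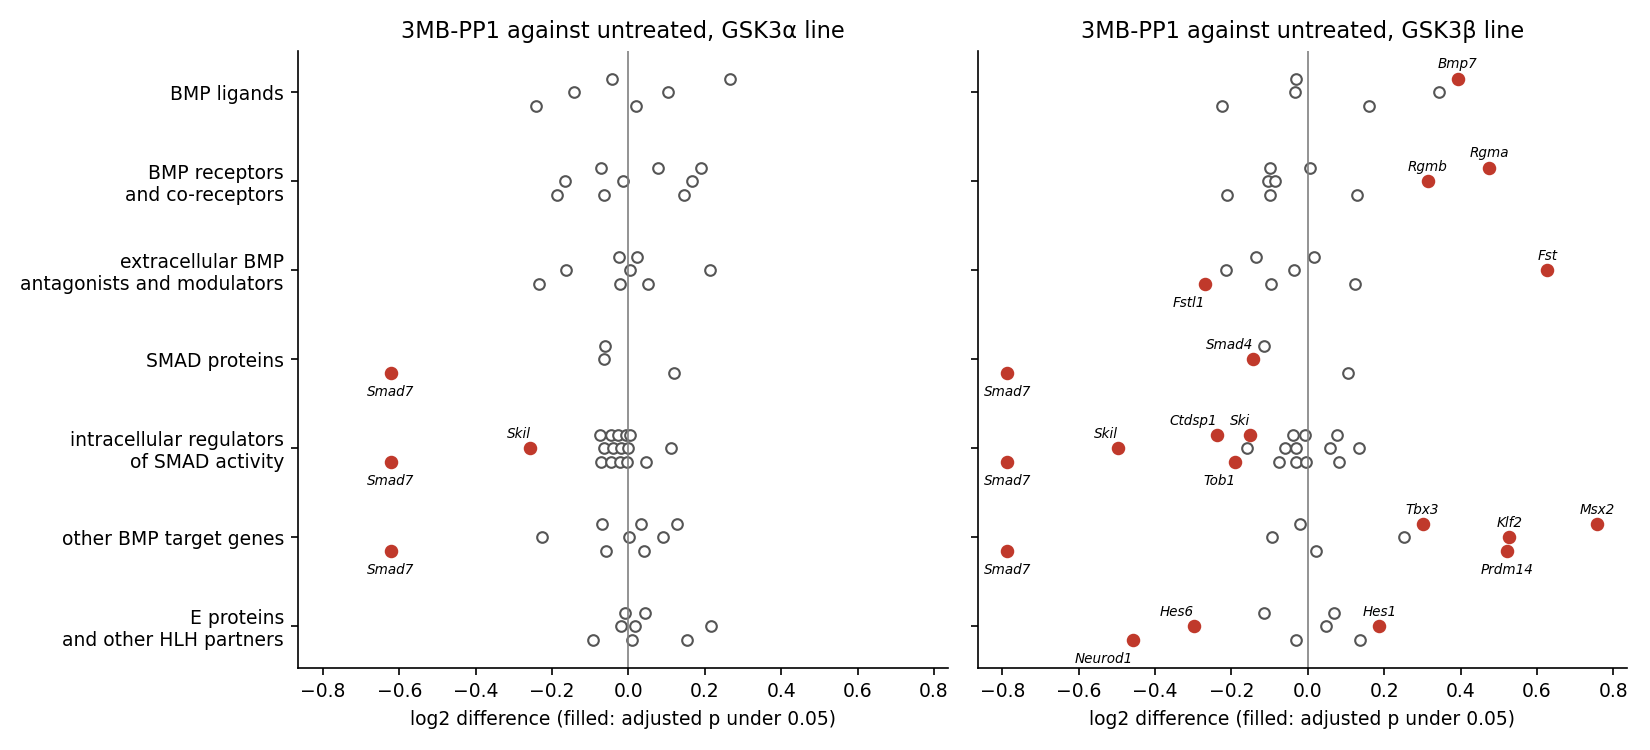
Log2 difference (inhibitor minus untreated) of the tested genes of 7 pathway lists in each line, with the 10 genes described above left out. Filled and named points passed the adjusted p of 0.05, a gene in several lists is shown in each, and the vertical spread within a list carries no meaning. In the GSK3α line Smad7 and Skil are filled, in the GSK3β line also genes such as Klf2, Prdm14 and Fst.

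The summed levels of 3 lists of markers of other cell types were higher with the inhibitor in the GSK3β line, with few genes called. There 1 of 4 tested primitive endoderm markers rose, 2 of 6 tested neural markers rose and 1 fell, and the 5 tested trophoblast markers did not pass. The median log2 difference of the neural list was -0.09, below 0 while its sum was higher. Primitive endoderm markers, 7 of 10 with values, summed to 165 to 192 in its untreated libraries and to 256 to 280 in its treated ones, next to 213 to 218 in the GSK3α line. Most of that sum is Col4a1 (0.61, adjusted p = 1.89e-07), a basement membrane collagen, and Foxa2, Ttr and Afp have no values. Neural markers, 6 of 10 with values, summed to 164 to 175 untreated and to 225 to 233 treated in the GSK3β line. There Tubb3 (0.52) and Nes (0.51) were higher and Neurod1 lower, and Dcx, Pax3 and Neurog2 are among those without values. In the GSK3α line the neural sum was also higher with the inhibitor, at 152.6 to 160.1 untreated and 168.5 to 169.8 treated, with no neural marker called. Trophoblast markers, 6 of 9 with values, summed to 20.2 to 21.1 untreated and to 24.2 to 26.6 treated in the GSK3β line. Elf5, Tpbpa and Plac1 have no values. The trophoblast sum includes Cdx2, which lies under the filter and was not tested, at 0.195 and 0.321 untreated and at 2.43 and 3.27 treated. The part of these markers in the changes of the ID genes was not tested.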

How the data were processed

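RNA of 8 libraries, 2 in each of 4 groups, was sequenced by the authors. Per the submitters' processing notes, reads were handled with TopHat2 and Partek on mm10; versions, annotation and strand setting are not given in the sources used here. The deposited table holds signal values: estimated gene counts that, judged from the values, the authors scaled to an equal upper quartile, so they are not raw counts and no count model was used. The smallest value of a library was taken as 1 read, and its total in that unit as the estimated reads. Sample columns outside the 8 libraries numbered 0.

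Of 48321 listed genes, 17488 had values and 13959 with a mean of at least 1 were tested on log2(value + 1), with limma-trend (limma 3.58.1, R 4.3.3, data.table version 1.17.8), 4 group means and 4 residual degrees of freedom. Tests are two-sided with Benjamini-Hochberg adjustment over all tested genes in each of 5 comparisons, a threshold of 0.05, and intervals at 95%. The script was tested on simulated data. Tables and plots used Python 3.11.15, pandas 2.3.3, numpy 2.4.6 and matplotlib 3.10.9. Coordinates and exon lengths are those of GENCODE on GRCm38, which is mm10.

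The 10 genes, the lists and the tests were chosen with earlier results of these data known. All 10 genes are named. So are up to 4 genes of each pathway list with the smallest adjusted p past the threshold in an inhibitor comparison. The 3 genes nearest to each ID gene are named too. Cdx2, Msx2, Nog, Dlx3, Gata6, Nanog, Utf1, the E protein genes and genes whose calls are counted were named after their values were seen. Alternatives were a pseudocount of 0.1 or 5, no filter or a filter at 5, rescaling to equal totals or by the median of ratios, only the 4 libraries compared, each library left out, a replicate block, and no intensity trend (a spread that does not vary with level).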

Additional observations from a re-analysis of the deposited data

Results flagged for a closer look

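The change with 3MB-PP1 differed between the 2 lines for 3 of the 10 genes, by a direct test of the difference in limma with adjustment over all tested genes. Of all tested genes, 6.53% passed this test. For Id3 the log2 change was 0.861 higher in the GSK3β line than in the GSK3α line (adjusted p = 6.25e-08). For Id4 it was 0.891 higher (adjusted p = 0.000857), and for Id2 it was -0.636 (adjusted p = 0.0229). The call of Id2 was lost in several fits that left out a library. Without an intensity trend the adjusted p of this test was 0.0639 for Id2 and 0.0518 for Id4. Each line has its own untreated group, and the 2 lines differed in the untreated level of Id3 (log2 difference -0.73), so the change of Id3 started from different levels.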

How the results depend on the processing

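No called value changed direction in the alternatives run. In the GSK3α line, the 1 member called became 2 where only the 4 libraries of the line were fitted and 0 without an intensity trend, and 0 to 1 without each library in turn. In the GSK3β line the 4 calls became 2 to 5 without each library, and for the difference between the lines the 3 calls became 2 to 3, and 1 without an intensity trend. The untreated lines gave 5 to 6 calls and the treated lines 5 to 7 without each library. Over all genes, calls in the GSK3α line ran from 16 to 186 when libraries were left out, against 123, and were 3 without an intensity trend; in the GSK3β line they ran from 864 to 2277, against 2084, and were 980 without the trend; for the difference they ran from 353 to 1339, against 911, and were 133 without the trend.

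Replicate numbers were shared across groups but the deviations of same-numbered libraries had correlations of -0.0447 to 0.0271 and the labels give no pairing; a fit with the replicate number as a block gave 1, 4, 3, 5 and 7 members called in the 5 comparisons and 106, 1997 and 831 genes for the inhibitor comparisons and their difference. Rescaling by equal totals or by the median of ratios moved the median of all genes by less than the median standard error of 0.0634. Smad6 passed between the untreated lines with equal totals (adjusted p = 0.0488). With 2 libraries a group and at most 122 estimated reads for Id2, changes of Id2 of the size of its interval (-0.73 to -0.25 in the GSK3β line) are loosely bounded. A filter at 5 leaves Id2 untested.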

Other observations

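Cdx2, a trophoblast and posterior fate regulator among the BMP targets, lies under the filter with a mean of 0.993. Without a filter on low values its log2 difference with 3MB-PP1 was 1.61 (adjusted p = 1.28e-07) in the GSK3β line and 0.16 (adjusted p = 0.724) in the GSK3α line, and the difference between the lines was 1.44 (adjusted p = 0.000110). Msx2 passed the filter only through its treated libraries in the GSK3β line, the group in which it is called higher. It rose there from 1.25 and 1.03 to 2.79 and 2.44 (0.76, adjusted p = 0.00111), so the filter favoured this call. The BMP antagonist gene Nog, like Cdx2 under the filter, was higher in the untreated GSK3β line (0.55, adjusted p = 0.00345). Its values were low, at 1.33 and 0.994 there against 0.623 and 0.340 in the untreated GSK3α line. Without the filter, Dlx3 (-0.45, adjusted p = 0.0108) and Gata6 (-0.45, adjusted p = 0.0115) were lower in the same comparison.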
